A study of Homo sapiens with 6 samples.

Results

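Plasma cells arise when a B cell stops dividing, builds up its endoplasmic reticulum and secretes antibody. The 10 genes described here mark that change. PRDM1, XBP1 and IRF4 encode its regulators, JCHAIN, MZB1, DERL3 and FKBP11 encode products of the secretory pathway, and SDC1, SLAMF7 and CD38 encode surface proteins. They were chosen by symbol from a table of 35974 genes, and all 10 were found and passed the filter on low counts, SDC1 only through its inhibitor libraries. Expression was measured by poly(A) RNA sequencing in SU-DHL-8, a line of diffuse large B-cell lymphoma labelled as lymph node tissue with the genotype DNMT1 wild type. The line received either the solvent, DMSO, in 3 libraries or, in another 3, GSK3685032, which inhibits the maintenance DNA methyltransferase DNMT1. The sources used here give neither dose nor duration, and inhibitor replicates 2 and 3 carry the agent names GSK3685033 and GSK3685034 in their labels. No label says that the libraries are separate cultures, so p-values measure the spread between these libraries only, which may be technical.

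IRF4 and PRDM1 are transcription factors. PRDM1 (BLIMP1) represses B-cell genes such as PAX5 and BCL6, and BCL6 in turn represses PRDM1. XBP1 acts downstream: the endonuclease ERN1 (IRE1) splices its messenger RNA during the unfolded protein response, and the spliced form drives genes for folding, transport and secretion.

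Library totals of estimated counts ran from 53846028 to 75304441. About 4 counts stood for 1 read pair. The inhibitor's target, DNMT1, measured 32.95 ± 0.690 FPKM (fragments per kilobase of gene, scaled to library size; SD, n = 3) with DMSO and 12.7 ± 0.774 with the inhibitor, and its RNA was lower in every inhibitor library. All 10 B-cell line markers examined had counts in some library, but LMO2 had only 4, 8 and 0 counts with DMSO.

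With the inhibitor, 4 of the 10 genes rose (PRDM1, MZB1, SDC1, SLAMF7), 3 fell (XBP1, JCHAIN, CD38) and 3 were not called (IRF4, DERL3, FKBP11), by edgeR's quasi-likelihood test at an adjusted p of 0.05. Over all 20783 tested genes 38.1% were called higher and 27.3% lower, so the counts of 4 and 3 among 10 lie near the background. FPKM values of the groups did not overlap for 7 of the 10 genes, against 71.7% of all tested genes. The median log2 change of the 10 was 0.00492, against 0.14 over all tested genes. SDC1, kept by the filter through its inhibitor libraries alone, could not be called lower, yet it is included in these counts and in the median. All tested genes likewise include 1809 with 0 counts in every DMSO library. Each of the 3 roles held genes that went in opposite directions.

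**Figure D1:**
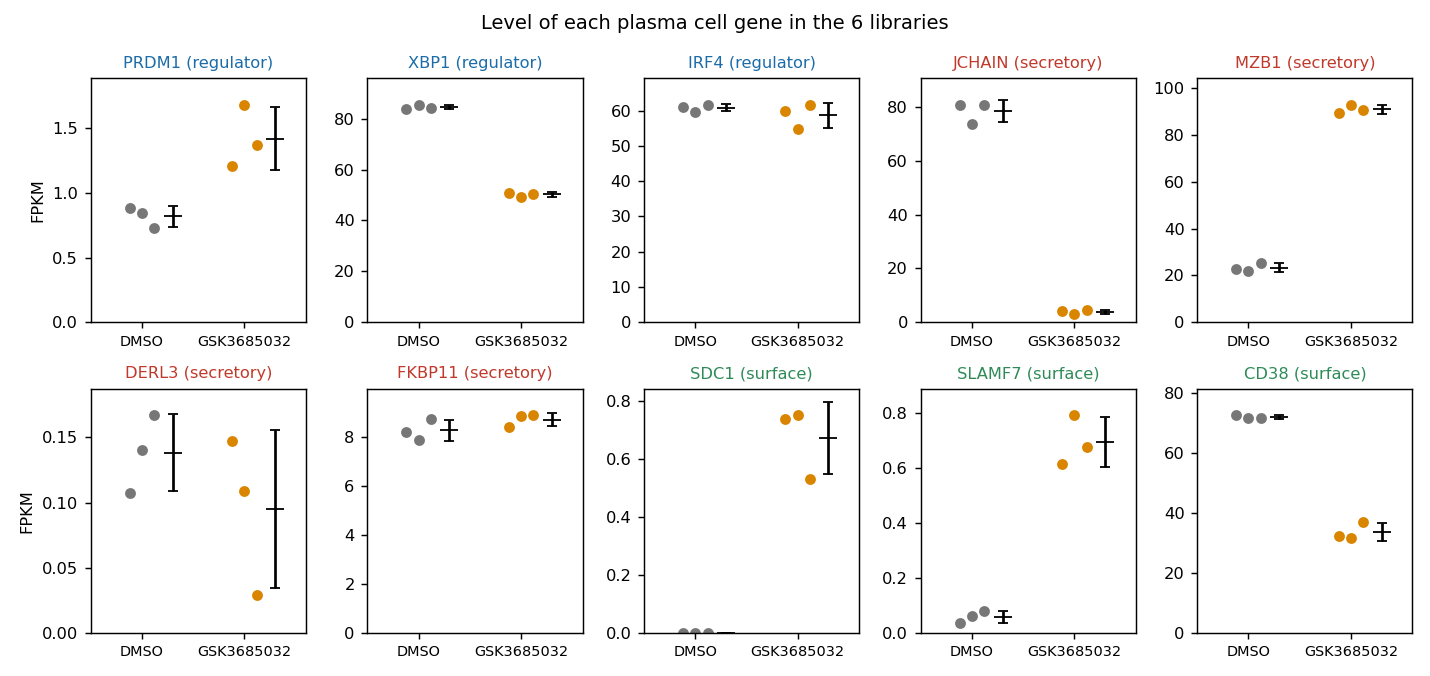
FPKM (y axis, linear, from 0) of each of the 10 genes in the 3 DMSO libraries (grey) and the 3 GSK3685032 libraries (orange); points are libraries, and the bar beside each group is its mean ± SD. JCHAIN, XBP1 and CD38 lie lower in all 3 inhibitor libraries, PRDM1, MZB1, SDC1 and SLAMF7 lie higher, and the groups overlap for IRF4, DERL3 and FKBP11.

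The regulators did not move together: PRDM1 rose 1.72-fold from a low level, XBP1 fell 1.69-fold from a high one, and IRF4 was not called. PRDM1 (ENSG00000057657, GRCh38 chromosome 6, 105993463 to 106109939) measured 0.882, 0.847 and 0.729 FPKM in DMSO replicates 1 to 3 and 1.21, 1.68 and 1.37 FPKM in inhibitor replicates 1 to 3. The groups did not overlap, and inhibitor replicate 1 lay nearest to the DMSO libraries. The log2 change was 0.79 (SE 0.159, 95% interval 0.43 to 1.15, edgeR quasi-likelihood adjusted p = 0.00165). With inhibitor replicate 1 as the only treated library the log2 change was 0.57 (edgeR adjusted p = 0.0544), which keeps the direction but not the call. That fit has fewer libraries and takes its spread from the DMSO group alone. The gene overlaps ATG5, an autophagy gene on the opposite strand that fell from 19.05 ± 0.461 to 12.4 ± 0.549 FPKM. The sources used here do not say whether counting used strand, so reads of overlapping genes cannot be told apart.

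XBP1 (ENSG00000100219, chromosome 22, 28794555 to 28800597) measured 83.9, 85.6 and 84.3 FPKM with DMSO and 50.95, 49.2 and 50.6 FPKM with the inhibitor. Its spread within each group was small against the gap between them. The log2 change was -0.76 (SE 0.0406, 95% interval -0.85 to -0.67, edgeR adjusted p = 2.75e-07). The deposited values are per gene and do not separate spliced from unspliced XBP1 RNA. In bulk RNA, fewer cells of a type and less RNA per cell cannot be told apart, here and for every gene that follows.

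IRF4 (ENSG00000137265, chromosome 6, 391739 to 411443) measured 60.95, 59.7 and 61.7 FPKM with DMSO and 59.8, 54.7 and 61.6 FPKM with the inhibitor. The groups overlapped, and inhibitor replicate 2 was the lowest library. The log2 change was -0.06 (SE 0.0507, 95% interval -0.17 to 0.06, edgeR adjusted p = 0.345), and its sign turned with upper-quartile scaling (0.11) and with a filter at an FPKM of 1 (0.04). IRF4 RNA was 69.1, 70.5 and 84.6 times the PRDM1 level in the DMSO libraries and 49.6, 32.5 and 45.0 times in the inhibitor libraries. The ratio was lower in every inhibitor library.

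The secretory genes held the largest fall among the 10 genes and a rise of 3.89-fold, in JCHAIN and MZB1. JCHAIN encodes the joining chain that links IgM and IgA into polymers. JCHAIN (ENSG00000132465, chromosome 4, 70655541 to 70666975) measured 80.8, 73.8 and 80.9 FPKM with DMSO and 3.95, 2.997 and 4.57 FPKM with the inhibitor. Every inhibitor library lay far under every DMSO library. The level was 20.4-fold lower (log2 change -4.35, SE 0.126, 95% interval -4.64 to -4.07, edgeR adjusted p = 1.22e-08). JCHAIN had the rank 6, counted from the most negative change, among 12777 tested genes with a mean FPKM of at least 1 in a group. With DMSO its mean lay above that of 98.9% of the genes in the table, and with the inhibitor above 79.0%. It overlaps an unnamed gene on the opposite strand (ENSG00000286848), which measured 1.06 ± 0.236 FPKM with DMSO and is listed at 0 in all 3 inhibitor libraries.

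MZB1, a resident of the endoplasmic reticulum that helps immunoglobulin heavy chains assemble, went the other way. MZB1 (ENSG00000170476, chromosome 5, 139387467 to 139390081) measured 22.8, 21.7 and 25.3 FPKM with DMSO and 89.3, 92.98 and 90.8 FPKM with the inhibitor. The 3 inhibitor libraries lay close together and far above DMSO. The log2 change was 1.96 (SE 0.0591, 95% interval 1.83 to 2.09, edgeR adjusted p = 1.43e-08). JCHAIN was 3.54, 3.41 and 3.19 times as abundant per length as MZB1 in the DMSO libraries, whereas MZB1 was 22.6, 31.03 and 19.85 times as abundant as JCHAIN in the inhibitor libraries. The order of the pair was thus opposite in all libraries of the groups. PROB1, which lies 511 bases from MZB1 on the same strand, rose from 3.03 ± 0.269 to 5.21 ± 0.421 FPKM.

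The windows upstream of JCHAIN and MZB1 are printed because these genes changed most among the secretory genes and both have few CG dinucleotides, the sequence that DNMT1 methylates. Sequences are RefSeq promoters of GRCh38.p14, 5′ to 3′ on the strand of the gene, with CG in capitals. They are trimmed to the bases that lie outside the gene's exons in GENCODE 29, so they end 152 bases before the RefSeq start site for JCHAIN (chr4:70666661-70666758, minus strand, within the deposited span of the gene but between its exons) and 168 bases before it for MZB1 (chr5:139390082-139390163, minus strand, upstream of the gene).
JCHAIN: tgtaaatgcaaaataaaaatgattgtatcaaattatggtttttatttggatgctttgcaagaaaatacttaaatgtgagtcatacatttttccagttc
MZB1: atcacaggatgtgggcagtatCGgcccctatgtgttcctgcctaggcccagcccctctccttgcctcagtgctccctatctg
The JCHAIN stretch holds no CG among 98 bases, and the MZB1 stretch holds 1 among 82.

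FKBP11 and DERL3 were not called. FKBP11 (ENSG00000134285, chromosome 12, 48921518 to 48926474), a prolyl isomerase of the secretory pathway, measured 8.17, 7.87 and 8.72 FPKM with DMSO and 8.39, 8.825 and 8.87 FPKM with the inhibitor. The groups overlapped through DMSO replicate 3 and inhibitor replicate 1. The log2 change was 0.07 (SE 0.0551, 95% interval -0.06 to 0.19, edgeR adjusted p = 0.309). Upper-quartile scaling, which raised the median change of all genes by 0.17, gave 0.24 and a call (edgeR adjusted p = 0.00365), as did the filter at an FPKM of 1 (0.16, edgeR adjusted p = 0.0233).

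DERL3 (ENSG00000099958, chromosome 22, 23834503 to 23839006), a Derlin that takes part in the degradation of misfolded proteins, measured 0.108, 0.1405 and 0.167 FPKM with DMSO and 0.148, 0.1085 and 0.0290 FPKM with the inhibitor. These levels rest on 27, 47 and 47 counts with DMSO and 38, 26 and 9 with the inhibitor, and the groups overlapped. The log2 change was -0.50 (SE 0.508, 95% interval -1.64 to 0.65, edgeR adjusted p = 0.419), and its sign turned against inhibitor replicate 1 alone (0.15). It was -0.97 without inhibitor replicate 1 and -0.11 without inhibitor replicate 3. DERL3 overlaps SMARCB1, a chromatin remodelling gene on the opposite strand, and FKBP11 overlaps CCDC65 in the same way.

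Summed over the 4 secretory genes, the level was 111.9, 103.5 and 115.1 FPKM with DMSO and 101.8, 104.9 and 104.3 FPKM with the inhibitor. These sums overlapped, although JCHAIN made up most of the first and MZB1 most of the second. For the 3 regulators the sums were 145.7, 146.1 and 146.7 FPKM with DMSO and 111.9, 105.5 and 113.5 FPKM with the inhibitor, with no overlap. XBP1 accounts for most of that gap. The median log2 change was -0.21 over the secretory genes and -0.06 over the regulators. The first is the midpoint of DERL3 and FKBP11 and the second is the value of IRF4. None of these genes was called, and DERL3 rests on low counts. The sizes of the changes of JCHAIN, MZB1, PRDM1 and XBP1 do not enter these medians. The difference of the medians, -0.16, turned positive without inhibitor replicate 3 (0.06). The ranges of change were -4.35 to 1.96 for secretory genes and -0.76 to 0.79 for regulators.

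**Figure D2:**
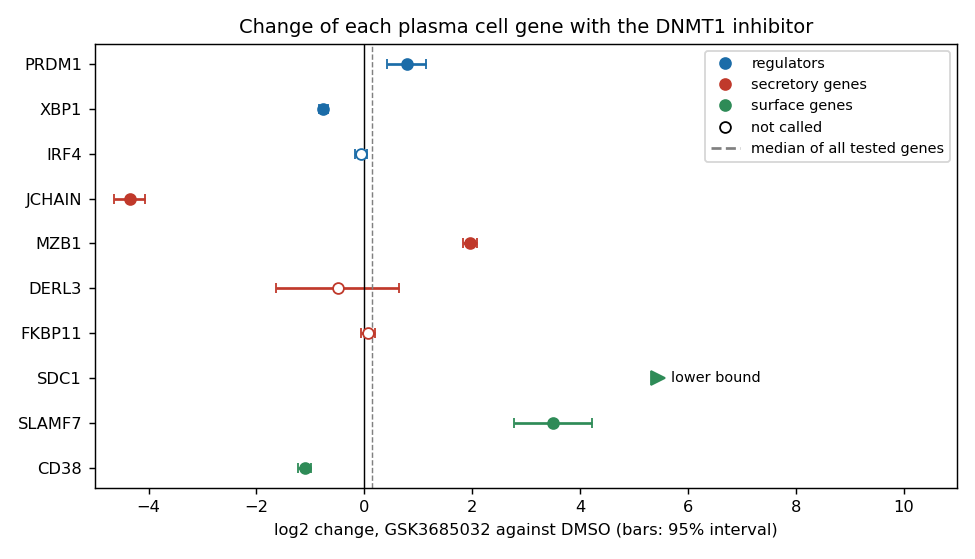
Log2 change of each of the 10 genes, GSK3685032 against DMSO (x axis), with 95% intervals from edgeR; colour gives the role, open symbols were not called, the triangle for SDC1 is a lower bound and the dashed line is the median of all tested genes. Regulators lie between -0.76 and 0.79, secretory genes between -4.35 and 1.96, and the surface genes hold 2 increases beside the fall of CD38.

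The surface genes split in the same way, with SDC1 and SLAMF7 higher from a level at or near 0 and CD38 lower from a high level. SDC1 encodes syndecan, the proteoglycan known as CD138 that is used to identify plasma cells. SDC1 (ENSG00000115884, chromosome 2, 20200797 to 20225433) had 0 counts in all 3 DMSO libraries and 0.740, 0.752 and 0.532 FPKM with the inhibitor, from 167, 168 and 113 counts. It was present in every inhibitor library and undetected in every DMSO library. Against a floor of 12 counts over the DMSO group, or 3 read pairs, the level was at least 43.6-fold higher. Because the filter kept SDC1 through its inhibitor libraries alone, its test is given without a filter, adjusted over all 35974 genes (edgeR adjusted p = 2.36e-05). Bounds and intervals cover counting error and the spread of these libraries only.

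SDC1 is also expressed by epithelial cells. Of 8 stromal and epithelial markers, 6 passed the filter. The 5 called higher all passed through the inhibitor libraries alone, so their calls are set by the filter. Of these, 3 had 0 counts in every DMSO library, COL1A2 had 6, 4 and 5, and KRT8 had 0, 8 and 0. COL1A1, which passed with DMSO too, was not called. The sums of all 8 were 0.0988 to 0.146 FPKM with DMSO and 3.19 to 4.74 FPKM with the inhibitor. Most of this was KRT18, a keratin, at 2.65 ± 0.721 FPKM with the inhibitor and 0 with DMSO. EPCAM, PDGFRB, VWF and PECAM1 were at 0 in all DMSO libraries. The part of these genes in the SDC1 result was not tested.

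SLAMF7 (ENSG00000026751, chromosome 1, 160739057 to 160754821), a receptor of the SLAM family on plasma cells and natural killer cells, measured 0.0341, 0.0611 and 0.0790 FPKM with DMSO and 0.613, 0.790 and 0.676 FPKM with the inhibitor. The DMSO values rest on 11, 24 and 29 counts, and the groups were far apart. The level was 11.3-fold higher (log2 change 3.50, SE 0.320, 95% interval 2.78 to 4.22, edgeR adjusted p = 8.45e-06). On the log2(FPKM + pseudocount) scale of limma, which understates changes of low genes, it was 2.33, 1.09 and 0.68 with pseudocounts of 0.1, 0.5 and 1. Of 7 T and NK cell markers in the table, 5 passed the filter, 3 of them with 0 counts in every DMSO library and kept through the inhibitor libraries, so that all 5 were called higher is partly set by the filter. The sums of all 7 were 2.29 to 3.17 FPKM with DMSO and 6.34 to 9.35 FPKM with the inhibitor. CD3E, CD8A, KLRD1 and PRF1 were at 0 in all DMSO libraries. Of 8 myeloid markers in the table, 4 were tested and 1 was called higher (MPO, kept only through the inhibitor libraries), with sums of 0.587 to 0.823 and 0.910 to 1.23 FPKM, and MPO, S100A9, ITGAM and FCGR3A were at 0 in all DMSO libraries. The part of these markers in the SLAMF7 result was not tested.

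CD38 (ENSG00000004468, chromosome 4, 15778275 to 15853232), an enzyme that consumes NAD and is abundant on germinal centre B cells and plasma cells, measured 72.6, 71.8 and 71.7 FPKM with DMSO and 32.3, 31.7 and 36.97 FPKM with the inhibitor. The groups did not overlap, and inhibitor replicate 3 lay nearest to DMSO. The level was 2.15-fold lower (log2 change -1.10, SE 0.0549, 95% interval -1.23 to -0.98, edgeR adjusted p = 1.77e-07). Its paralog and neighbour BST1 measured 0.409 ± 0.0558 and 0.389 ± 0.128 FPKM and was not called.

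The next 3 promoters are shown because SDC1 rose from 0 with a window rich in CG, XBP1 fell with a window still richer, and CD38 fell with a window poor in CG. They come from the same source and are printed in the same way. SDC1 lies at chr2:20225476-20225725 on the minus strand, 0 bases short of its RefSeq start site, XBP1 at chr22:28800598-28800819 on the minus strand, 28 bases short, and CD38 at chr4:15778078-15778274 on the plus strand, 53 bases short. All 3 stretches lie upstream of the deposited gene.
SDC1: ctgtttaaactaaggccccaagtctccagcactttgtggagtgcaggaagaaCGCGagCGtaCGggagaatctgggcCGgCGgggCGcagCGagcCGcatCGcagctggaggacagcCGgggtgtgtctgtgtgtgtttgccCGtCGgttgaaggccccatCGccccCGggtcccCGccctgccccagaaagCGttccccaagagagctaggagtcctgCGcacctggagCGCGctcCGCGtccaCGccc
XBP1: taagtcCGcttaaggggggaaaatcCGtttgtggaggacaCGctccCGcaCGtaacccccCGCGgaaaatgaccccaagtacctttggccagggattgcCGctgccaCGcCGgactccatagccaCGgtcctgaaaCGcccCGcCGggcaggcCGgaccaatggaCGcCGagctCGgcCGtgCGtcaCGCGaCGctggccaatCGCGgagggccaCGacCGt
CD38: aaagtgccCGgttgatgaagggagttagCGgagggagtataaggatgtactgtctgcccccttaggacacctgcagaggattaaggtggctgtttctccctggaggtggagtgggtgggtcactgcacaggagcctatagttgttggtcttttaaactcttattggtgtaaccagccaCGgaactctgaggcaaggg
These stretches hold 23, 27 and 3 CG.

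RefSeq promoters were matched for 8 of the 10 genes, with 12 start sites, and not for DERL3 and SLAMF7. Over the full 250 bases before the start site, JCHAIN held 0 CG, CD38 held 3 and MZB1 held 4, against a median of 11 over 35116 promoters. All windows but the first of SDC1 overlap exons of their own gene in GENCODE 29. Their CG counts thus include exon sequence. PRDM1 held 11 and 7 at its start sites, FKBP11 held 20 and 17, SDC1 held 23 and 21, IRF4 held 28, and XBP1 held 31 and 21. Genes with few CG included one that rose (MZB1) and a pair that fell (JCHAIN, CD38). Genes with many CG included one that rose from 0 (SDC1), one that fell (XBP1) and a pair that was not called (IRF4, FKBP11). No methylation was measured here.

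**Figure D3:**
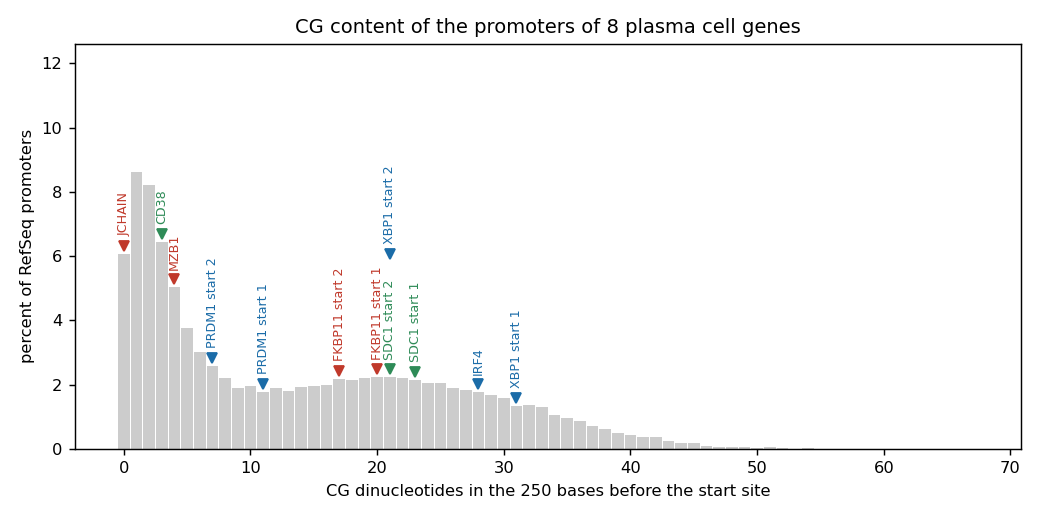
Number of CG dinucleotides in the 250 bases before the start site (x axis) and percent of the 35116 RefSeq promoters with that number (y axis, grey bars); triangles mark the 12 start sites of 8 plasma cell genes, coloured by role, and their height carries no value. JCHAIN lies at 0, CD38 at 3 and MZB1 at 4, under the median of 11, while SDC1, IRF4, FKBP11 and XBP1 lie above it. Most of the 12 windows overlap exons of their own gene.

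4 short motifs tied to the regulators were searched on both strands of the same windows, as letters only. TGACGTGG, the core of an element that XBP1 and ATF6 recognise, occurred in 0.612% of all promoters and in 0 of the 12. CCACG, part of the endoplasmic reticulum stress element and contained in the reverse complement of TGACGTGG, occurred in 33.5% of all promoters and in 7 of the 12, from 6 genes (SDC1, CD38, MZB1, PRDM1, FKBP11, XBP1). GNGAAAG, a core of PRDM1 sites, occurred in 19.4% and in 2 of the 12 (IRF4, PRDM1). GGAANNGAA, a composite of ETS and IRF letters, occurred in 6.58% and in 2 of the 12 (CD38, PRDM1). A match is no evidence of binding.

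By FPKM the order of the 10 genes was the same in all 3 DMSO libraries: XBP1, JCHAIN, CD38, IRF4, MZB1, FKBP11, PRDM1, DERL3, SLAMF7, SDC1. XBP1 and JCHAIN came close to each other (84.6 ± 0.901 and 78.5 ± 4.09), as did JCHAIN and CD38 (72.03 ± 0.503), but the ranges of these neighbours did not overlap. In the inhibitor libraries MZB1 came first (91.02 ± 1.87), followed by IRF4 (58.7 ± 3.58), XBP1 (50.2 ± 0.929), CD38 (33.7 ± 2.87), FKBP11 (8.69 ± 0.268), JCHAIN (3.84 ± 0.795) and PRDM1 (1.42 ± 0.243). SLAMF7 (0.693 ± 0.0899) and SDC1 (0.675 ± 0.124) followed with overlapping ranges, and their order differed in inhibitor replicate 1. DERL3 (0.0951 ± 0.0604) came last.

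The genes nearest in pattern were taken by Euclidean distance of log2(FPKM + 0.5), centred per gene over the 6 libraries. The search covered the 12777 tested genes with a mean FPKM of at least 1 in a group, less those without a name. For PRDM1 these were USP53 (0.103), ESYT2 (0.113) and KCTD13 (0.119). For XBP1 they were CPSF2 (0.0401), TLE4 (0.0418) and GPBP1 (0.0431), and for IRF4 UBR3 (0.0572), TOP3B (0.0581) and DHX16 (0.0615). For JCHAIN the nearest were CCNE2 (1.36), APOBEC3B (1.65) and GCSAM (1.68). The distance is not scaled to the size of a change. The larger distances of JCHAIN therefore restate its large fall. The distance describes these 6 libraries, which fall into the 2 treatment groups.

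Other genes of the plasma cell state went in both directions, as genes over the whole table did. Over all tested genes 38.1% were called higher and 27.3% lower, with a median log2 change of 0.14. These shares are the background for this list and for each list that follows. Of 30 such genes 26 were tested, with 11 called higher, 10 lower and 5 not called and a median log2 change of 0.29. Of the 11, 3 (CREB3L2, GPRC5D and ITM2C) had 0 counts in every DMSO library. They passed the filter through the inhibitor libraries alone, so their calls are set by the filter. ITM2C, a membrane protein, had 0 counts with DMSO and 12.3 ± 0.585 FPKM with the inhibitor, at least 560-fold higher. GPRC5D, an orphan receptor of plasma cells, had 0 counts with DMSO and 1.225 ± 0.143 FPKM with the inhibitor, at least 29.4-fold higher. TNFRSF17 (BCMA), a survival receptor of plasma cells, fell from 2.76 ± 0.292 to 0.498 ± 0.214 FPKM (log2 change -2.45). EAF2, an elongation factor partner, fell from 9.22 ± 1.45 to 2.92 ± 0.524 FPKM (log2 change -1.66).

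Factors of B cells and the germinal centre, which oppose the plasma cell programme, had 6 genes called higher, 11 lower and 3 not called of 20, with a median log2 change of -0.59. BCL6, the germinal centre repressor that opposes PRDM1, fell from 6.75 ± 0.531 to 2.59 ± 0.354 FPKM (log2 change -1.38). PAX5, which keeps B-cell identity, fell from 76.0 ± 1.61 to 42.3 ± 1.22 FPKM (log2 change -0.85). BACH2, a repressor of PRDM1, fell from 53.8 ± 0.268 to 31.9 ± 0.700 FPKM (log2 change -0.76). SPIB, an ETS factor, rose from 18.35 ± 0.227 to 28.2 ± 0.754 FPKM (log2 change 0.61). Among genes with a mean FPKM of at least 1 in a group, the largest changes were falls of MME, MYBL1, MEF2C and IKZF3, with log2 changes of -2.26, -2.15, -1.76 and -1.74.

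Genes of the unfolded protein response and of protein degradation at the endoplasmic reticulum had 16 called higher, 16 lower and 6 not called of 38, with a median log2 change of -0.07. ERN1, the enzyme that splices XBP1 RNA, rose from 1.13 ± 0.113 to 3.86 ± 0.167 FPKM (log2 change 1.77) while XBP1 itself fell. HSPA5, the main chaperone of the compartment, rose from 36.7 ± 0.657 to 57.4 ± 1.23 FPKM (log2 change 0.64). CRELD2 and ATF6B rose with log2 changes of 1.34 and 1.33, and SDF2L1 fell with a log2 change of -0.92. DERL1 and DERL2, paralogs of DERL3, fell with log2 changes of -0.43 and -0.77.

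The machinery of translocation and transport had 14 called higher, 25 lower and 10 not called of 49 tested, with a median log2 change of -0.14. SRP68, TRAM1, SEC11C and SEC62 fell with log2 changes of -0.995, -0.86, -0.80 and -0.70. TRAM1, a partner of the translocation channel, went from 218 ± 2.06 to 121 ± 4.96 FPKM. Of 12 immunoglobulin constant genes tested 3 were higher, 6 lower and 3 not called, with a median of -0.40. Among those higher, IGHA2 and IGHA1 passed the filter only through the inhibitor libraries. With DMSO, IGHA2 had 0 counts in every library and IGHA1 had 14, 13 and 0. IGKC fell from 2732 ± 108 to 1509 ± 63.2 FPKM (log2 change -0.86). IGLC2 and IGLC3 fell with log2 changes of -0.63 and -0.62, and IGHG1 fell by 0.25 on the log2 scale. IGHG3, the heavy chain gene with the highest level, fell from 802 ± 22.6 to 551 ± 16.8 FPKM (log2 change -0.55). It was chosen after its values were seen. IGHM and IGHD were not found among the deposited genes. IGLC7 was higher with a log2 change of 7.52, but reads of these near-identical genes may be split among copies, and each is uncertain.

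**Figure D4:**
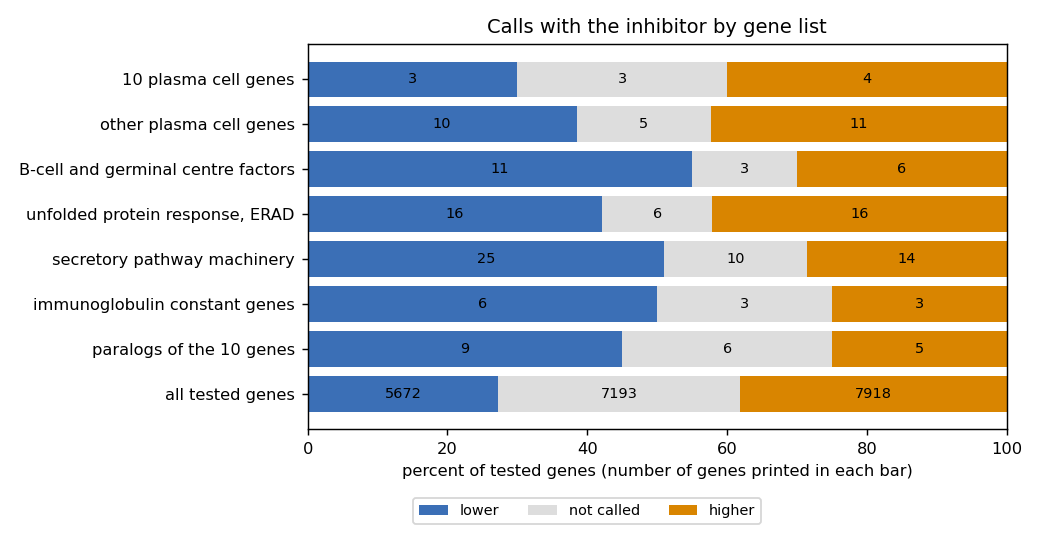
Percent of tested genes called lower (blue), not called (grey) or called higher (orange) with GSK3685032, for the 10 plasma cell genes, 6 related lists and all tested genes; the number of genes stands in each bar. The 10 plasma cell genes hold 4 higher and 3 lower, and the B-cell and germinal centre factors hold 6 higher and 11 lower.

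Of 23 paralogs of the 10 genes found in the table, 20 were tested, with 5 called higher, 9 lower and 6 not called and a median log2 change of -0.25. SLAMF1 and SDC4, among those called higher, passed the filter only through their inhibitor libraries. Beside the rise of SLAMF7, its paralogs SLAMF6, LY9 and CD48 fell with log2 changes of -1.69, -0.87 and -0.78, and FKBP7 fell with a log2 change of -1.28 while FKBP11 was not called.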

How the data were processed

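Poly(A) RNA was read from both fragment ends after removal of the dUTP-marked strand, per the labels' protocols. The submitters' processing notes name HISAT2 2.2.1, StringTie 2.1.6, cutadapt 1.9, edgeR and DESeq2, without roles, and the mouse build mm10. The deposited IDs are human: 34105 of 35974 matched GENCODE 29, and 99.89% of those overlapped their GRCh38 position, so coordinates are read as GRCh38. The authors deposited 1 estimated count and 1 FPKM value per gene and library. Low counts cluster at 4 (1320 genes per library, against 725.8 at 3 and 474.5 at 5), taken as 1 read pair.

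Libraries were grouped by title. The main test was edgeR 4.0.16 (R 4.3.3), quasi-likelihood, with filterByExpr, TMM factors and Benjamini-Hochberg adjustment over 20783 genes, two-sided. Intervals are 95% and cover the spread of 3 libraries per group. Alternatives used DESeq2 1.42.0 and limma 3.58.1 on log2(FPKM + pseudocount), other scalings and filters, and fewer libraries.

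The members and lists were chosen with earlier results of these data known. All 10 members are named, with up to 4 called genes per list of largest change at a mean FPKM of at least 1, chosen partner genes, and the 3 genes nearest in pattern. Promoters are from RefSeq, GRCh38.p14. Some genes of the lists were not analysed here.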

Additional observations from a re-analysis of the deposited data

How the results depend on the processing

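Under 17 alternatives the members called higher numbered 3 to 5 and those called lower stayed at 3. JCHAIN, MZB1, XBP1 and CD38 kept direction and call in 17 of 17 alternatives, SLAMF7 in 16 of 16, and PRDM1 in 16 of 17, the exception being inhibitor replicate 1 alone. SDC1, with 0 counts in all DMSO libraries, could hardly change direction and is not counted. A filter at an FPKM of 1 left SDC1, SLAMF7 and DERL3 untested and added a call of FKBP11. Upper-quartile scaling also gave a call of FKBP11 (0.24, edgeR adjusted p = 0.00365). With the filter at an FPKM of 1, 4826 of 12395 tested genes were called higher, against 7918 of 20783. IRF4 turned to 0.11 with upper-quartile scaling and to 0.0389 with the filter, and DERL3 to 0.15 with inhibitor replicate 1 alone. Upper-quartile scaling raised the median of all genes by 0.17. The difference in median log2 change of secretory genes minus regulators, -0.16, became 0.0358 and 0.0575 by limma with pseudocounts of 0.5 and 1, and 0.0998 with inhibitor replicate 1 alone. Leaving out 1 library gave -0.360 (without inhibitor replicate 1) to 0.0604 (without inhibitor replicate 3). In each of these fits the secretory median is the midpoint of DERL3 and FKBP11, and the regulator median is IRF4. With 1 library left out, DERL3 varied most of these, from -0.97 without inhibitor replicate 1 to -0.11 without inhibitor replicate 3. Why DERL3 differed between libraries was not tested. Same-numbered libraries did not deviate together (correlations 0.00049, 0.02 and 0.00268 over 20783 genes). A replicate block gave 7448 genes higher and 5368 lower in all, with 4 and 3 members called. Low counts limit DERL3, SLAMF7 and SDC1 most.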

Other observations

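SLAMF7 lies in a cluster of related receptor genes on chromosome 1. Beside SLAMF6, LY9 and CD48, CD84 fell from 2.42 ± 0.0732 to 1.66 ± 0.156 FPKM (SD, n = 3, log2 change -0.55, edgeR adjusted p = 0.000298). SLAMF1 rose from 0.0425 ± 0.00527 to 0.150 ± 0.0741 FPKM (log2 change 1.79). SDC4, a paralog of SDC1, rose from 0.0317 ± 0.0381 to 0.659 ± 0.194 FPKM (log2 change 4.43). Their DMSO counts were 12, 12 and 13 for SLAMF1 and 12, 0 and 4 for SDC4. Both passed the count filter only through their inhibitor libraries, so no test is given for them. CD84, SLAMF1 and SDC4 were chosen after their values were seen. CRYBG1 is the nearest tested named gene after PRDM1 by position, 250778 bases away. It fell from 23.8 ± 0.263 to 7.13 ± 0.120 FPKM (log2 change -1.74), and was likewise chosen after its values were seen.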
